A study of Caenorhabditis elegans with 2 samples.

Results

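The genes encoding the AAA ATPase CDC-48 and chaperones of the cytosol, endoplasmic reticulum and mitochondria were examined for binding of the Hox protein LIN-39 in *Caenorhabditis elegans* larvae. The set held 8 of 19973 annotated protein-coding genes, *cdc-48.1*, *cdc-48.2*, *hsp-1*, *hsp-3*, *hsp-4*, *hsp-6*, *hsp-60* and *daf-21*. The genes were selected on the signals and positions of regions in these same lists, so that the signals below are descriptions and no test was made on them. A region was given to a gene when its summit lay between 2000 bp upstream of the gene's 5' end and its 3' end, on genome build ce11. *daf-21* is listed as *hsp-90* in the annotation, and all 8 genes were found.

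The samples were 2 biological replicates of whole L4 larvae of both sexes, pooled, of strain OP18. These animals carry the *unc-119* allele ed3 on chromosome III and the transgene wgIs18, through which LIN-39 is made as a fusion with enhanced green fluorescent protein. Chromatin immunoprecipitation followed by sequencing (ChIP-seq) measures how strongly DNA is recovered with the tagged protein. Both replicates form 1 group and were called against the same control, so there was no contrast between conditions. LIN-39 is known for patterning the mid-body, and a whole-animal profile cannot say in which cells a region was bound. The files hold no read counts, so the depth behind each signal is unknown.

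CDC-48, the worm counterpart of p97, is a AAA ATPase that pulls ubiquitylated proteins out of membranes and complexes, often on their way to the proteasome. HSP70 proteins bind exposed hydrophobic stretches of unfolded chains in cycles of ATP hydrolysis, HSP90 acts later on kinases, receptors and other clients, and chaperonins enclose a folding chain in a chamber. Separate members of these families serve the cytosol, the endoplasmic reticulum and the mitochondria, and several are known to be induced when unfolded proteins collect in their compartment.

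The sequences around the summits were read because the strongest regions of *cdc-48.1*, *hsp-1*, *hsp-60* and *hsp-3* lay from 19 to 644 bp upstream of the 5' end. That of *daf-21* lay upstream only of the RefSeq 5' end. The sequences are shown for the members of highest signal, on the gene's own strand, 5' to 3', from the RefSeq genome of build ce11. Capitals mark matches, on either strand, to 4 patterns: GAGAGA, which was known to be frequent at these peaks, TTCNNGAA, a pair of heat shock element units, TGACGT, a core related to the elements of the endoplasmic reticulum stress response, and TGATNNAT, a site of Hox proteins with a PBC partner. The windows were 201 bp long, chrII:10563478-10563678 on the minus strand for *cdc-48.1*, chrIV:17278463-17278663 on the plus strand for *hsp-1*, chrIII:1618998-1619198 on the plus strand for *hsp-60* and chrV:14685719-14685919 on the plus strand for *daf-21*. That of *hsp-3* was kept to the 119 bp upstream of the annotated transcript, chrX:6092125-6092243 on the minus strand.
cdc-48.1: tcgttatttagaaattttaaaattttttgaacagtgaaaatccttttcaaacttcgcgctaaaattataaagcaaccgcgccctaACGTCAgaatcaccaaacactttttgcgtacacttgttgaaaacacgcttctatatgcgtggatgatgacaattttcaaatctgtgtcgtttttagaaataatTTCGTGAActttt
hsp-1: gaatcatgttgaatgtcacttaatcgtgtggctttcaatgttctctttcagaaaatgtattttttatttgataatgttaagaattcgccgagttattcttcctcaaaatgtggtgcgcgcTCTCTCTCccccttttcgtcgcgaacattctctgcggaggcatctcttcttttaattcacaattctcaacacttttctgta
hsp-60: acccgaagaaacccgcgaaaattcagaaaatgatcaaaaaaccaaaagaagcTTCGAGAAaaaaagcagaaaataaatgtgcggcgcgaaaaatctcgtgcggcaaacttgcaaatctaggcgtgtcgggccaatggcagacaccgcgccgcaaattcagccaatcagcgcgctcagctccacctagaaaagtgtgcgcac
hsp-3: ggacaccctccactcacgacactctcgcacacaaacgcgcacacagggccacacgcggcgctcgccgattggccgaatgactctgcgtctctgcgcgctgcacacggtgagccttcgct
daf-21: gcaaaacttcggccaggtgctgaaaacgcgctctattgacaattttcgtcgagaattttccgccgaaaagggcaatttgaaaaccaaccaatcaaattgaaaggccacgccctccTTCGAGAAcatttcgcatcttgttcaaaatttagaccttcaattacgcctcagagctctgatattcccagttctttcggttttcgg
In *cdc-48.1* an ACGTCA, the reverse complement of TGACGT, began 15 bp before the summit, and a TTCGTGAA began 83 bp upstream of the 5' end. In *hsp-1* the capitals are 2 overlapping matches to TCTCTC, the reverse complement of GAGAGA. The *hsp-60* and *daf-21* sequences hold the same 8 bases, TTCGAGAA. No capitals stand in the *hsp-3* stretch, which has a GC content of 65.5%, and its matches to GAGAGA and TGACGT lay downstream, in the annotated 5' UTR.

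Of the 8 genes, 3 had a peak of the authors' thresholded list in the window, *cdc-48.1*, *hsp-1* and *hsp-60*. Among all protein-coding genes 0.861% had one, and among those with windows as long as the members' the share was 1.04%. All 8 had a region in the pooled list, as did 72.0% of all protein-coding genes, so a pooled region by itself sets these genes apart little. For 5 of the 8 a region was among the 1000 highest of the pooled list, against 4.71% of genes, and for 2, *cdc-48.1* and *hsp-1*, a region was among the 1000 highest of both replicates, against 0.796% of genes. These counts follow from how the genes were selected, and nothing is read from their distance to the shares over all genes. The members' windows ran from 4372 to 8062 bp, against a median of 4027 bp over all protein-coding genes.

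Signals are given as the relative signal, the deposited signal of a region divided by the median of its own list, since the scale of the signal differs between lists. The pooled list and each replicate's list held 30000 regions, and the thresholded list held the 163 highest pooled regions. The last region inside the threshold, rank 163, and the first outside it, rank 164, both had a relative signal of 2.34. The strongest pooled region of the members had a median relative signal of 2.10, against 1.104 over the 14381 genes with a pooled region. The members fell in a wide range, with *cdc-48.1* at 8.51, *hsp-1*, *hsp-60*, *hsp-3* and *daf-21* between 2.02 and 3.00, *hsp-6* at 1.62, and *hsp-4* and *cdc-48.2* near the list median.

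**Figure D1:**
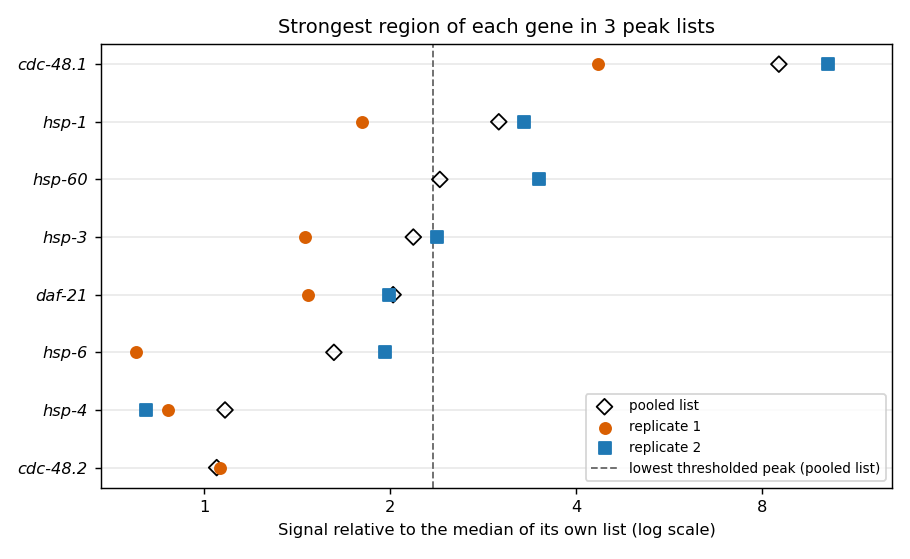
Relative signal (log scale) of the strongest pooled region of each of the 8 genes in the pooled list and of the matching region in each replicate, where one was found within 200 bp, with a dashed line at the lowest thresholded peak on the pooled scale. *cdc-48.1* stands highest in every list, at 8.51 pooled, and *hsp-60* has no replicate 1 point and *cdc-48.2* no replicate 2 point.

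*cdc-48.1*, one of the worm's pair of p97 genes, carried the highest region of the set. The region, in intergenic sequence, spanned 10563406 to 10563749 of chromosome II, its summit was 171 bp upstream of the 5' end, and its relative signal was 8.51 in the pooled list, at rank 4. It was 4.34 in replicate 1, at rank 12, and 10.2 in replicate 2, at rank 3, with a mean of 7.28 ± 4.16 (SD, n = 2). The replicates thus differed 2.35-fold in size, yet both placed the region among their highest and their summits lay 2 bp apart. *C06A1.7*, on the other strand, starts 1484 bp away and has the same summit 1313 bp upstream of its 5' end. The 5' end of *C06A1.6*, on the strand of *cdc-48.1*, lies between the summit and *C06A1.7*. The summit is 1100 bp downstream of that 5' end and outside *C06A1.6*. A second pooled region of *cdc-48.1* lay in its 3' UTR, 3082 bp downstream of the 5' end, with a relative signal of 1.50 at rank 2071. Replicate 2 had this 3' UTR region at 1.84, at rank 803, and replicate 1 had none in that place.

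*cdc-48.2*, the closely related second p97 gene, had no such region. Its one pooled region had a relative signal of 1.05, at rank 12572, with a summit 1688 bp upstream, inside a coding exon of the divergent neighbour *ctns-1*, the worm cystinosin gene. In replicate 1 this region stood at 1.06, rank 12407, and a further region 979 bp downstream of the 5' end, in a coding exon of *cdc-48.2*, stood at 1.22. Replicate 2 had no region in the window of *cdc-48.2*. In the pooled list the pair of p97 genes therefore stood at opposite ends of the set, at percentiles 99.98 and 41.6 of the 14381 genes with a pooled region. In replicate 1 the *cdc-48.2* region, at 1.06, stood above the matched regions of *hsp-4*, at 0.875, and *hsp-6*, at 0.775. The difference in level between the p97 genes was not tested, since both were chosen for their values.

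**Figure D2:**
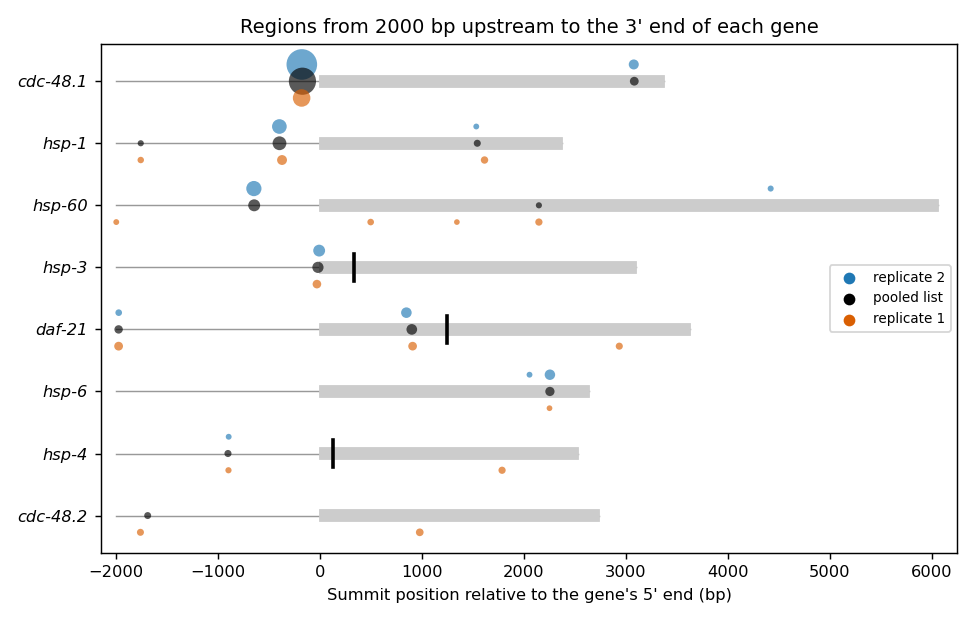
Position of each region's summit relative to the annotated 5' end (bp, on the gene's strand) for the 8 genes, with replicate 2 above, the pooled list on and replicate 1 below each line, gene bodies in grey, RefSeq 5' ends that differ as black bars, and point size following relative signal. The strongest regions of *cdc-48.1*, *hsp-1*, *hsp-3* and *hsp-60* lie at or upstream of the 5' end, while those of *hsp-6* and *daf-21* lie inside the annotated gene.

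*hsp-1*, the constitutive HSP70 of the cytosol, had a peak on chromosome IV from 17278391 to 17278734, in intergenic sequence 396 bp upstream of its 5' end. Its relative signal was 3.00 in the pooled list, at rank 65, 1.80 in replicate 1, at rank 807, and 3.30 in replicate 2, at rank 46. The mean was 2.55 ± 1.06 (SD, n = 2), and the replicate summits lay 26 bp apart. No other protein-coding gene had this summit in its window. The gene's other pooled regions were weak, at 1.07 in a coding exon of *hsp-1* and 0.865 in a coding exon of *clec-196*, 1756 bp upstream. The *clec-196* one stood at 0.933 in replicate 1 and had no counterpart in replicate 2.

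*daf-21* encodes the cytosolic HSP90, a chaperone that holds client proteins such as kinases near their active form. Its strongest region lay on chromosome V from 14685647 to 14685990 with a relative signal of 2.02 in the pooled list, at rank 313, outside the threshold. It stood at 1.47 in replicate 1, at rank 2823, and at 1.99 in replicate 2, at rank 475, with a mean of 1.73 ± 0.365 (SD, n = 2). The place of this summit in the gene depends on the annotation. It fell in an intron, 901 bp downstream of the Ensembl 5' end, but 341 bp upstream of the RefSeq 5' end, which lies 1242 bp further into the gene. The same summit lay 334 bp upstream of *C47E8.4*, a divergent gene. A second *daf-21* region, 1973 bp upstream in a coding exon of *C47E8.3*, was at 1.41 in the pooled list, at 1.50 in replicate 1 and at 0.974 in replicate 2. In replicate 1 the upstream region therefore ranked slightly above the intronic one, and in replicate 2 far below it, at rank 16430.

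The endoplasmic reticulum has paired HSP70s of the BiP type, *hsp-3* and *hsp-4*, of which *hsp-4* is known as the more strongly induced by the unfolded protein response. The *hsp-3* region lay on chromosome X from 6091971 to 6092314, with its summit 19 bp upstream of the Ensembl 5' end and 358 bp upstream of the RefSeq one. Its relative signal was 2.18 in the pooled list, at rank 216, 1.45 in replicate 1, at rank 3056, and 2.38 in replicate 2, at rank 174, with a mean of 1.92 ± 0.654 (SD, n = 2). It lay outside the threshold, which ended at rank 163, and 62.7% of the bases within 100 bp of its summit were G or C, against a median of 33.3% over pooled regions and 42.3% over thresholded peaks. *hsp-4* had only a weak region in the pooled list, at 1.08 and rank 11255, 901 bp upstream of its 5' end on chromosome II. It was 0.875 in replicate 1, at rank 21938, and 0.806 in replicate 2, at rank 26672, below the median of both lists, with a mean of 0.841 ± 0.0489 (SD, n = 2). Replicate 1 also had a region in a coding exon of *hsp-4* at 1.11, which replicate 2 lacked.

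Of the mitochondrial chaperones, *hsp-60*, the chaperonin of the matrix, had a peak with a matched region in the list of replicate 2 only. This intergenic peak on chromosome III, from 1618926 to 1619269, had its summit 644 bp upstream of the 5' end and a relative signal of 2.41 in the pooled list, at rank 136. In replicate 2 the region stood at 3.49 and rank 39, the second highest value of the set in that list. Replicate 1 had 4 regions in the window of *hsp-60*, with relative signals from 0.763 to 1.11, and none of them matched the peak. Of the 163 thresholded peaks, 8 had no matched region in replicate 1 and 4 had none in replicate 2. The *hsp-60* summit lay 169 bp upstream of the divergent gene *Y22D7AL.10*, which RefSeq annotates as a mitochondrial heat shock protein, of the kind that caps the chaperonin, and whose 5' end is 813 bp from that of *hsp-60*.

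*hsp-6*, the mitochondrial HSP70 that also drives protein import, had its region at the other end of the gene. It lay on chromosome V from 4824333 to 4824676, in the 3' UTR of *hsp-6*, 2255 bp downstream of the 5' end, with a relative signal of 1.62 at rank 1237 of the pooled list. It stood at 0.775 in replicate 1, at rank 29031, close to the bottom of that list, and at 1.96 in replicate 2, at rank 532, with a mean of 1.37 ± 0.839 (SD, n = 2). The same summit lay 1082 bp upstream of *adss-1*, the next gene on that strand, which encodes an enzyme of adenine nucleotide synthesis. No region was found within 2000 bp upstream of *hsp-6* in any list.

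Both replicates had *cdc-48.1* as the highest of these genes, and they differed below it. For the 6 members whose strongest region was found in both, the relative signal was higher in replicate 2 for 5, all but *hsp-4*, where 59.2% of the 887 matched regions of pooled ranks 1 to 1000 were higher in replicate 2. The ratio of replicate 2 to replicate 1 ran from 0.921 for *hsp-4* and 1.35 for *daf-21* to 2.35 for *cdc-48.1* and 2.53 for *hsp-6*, against a median of 1.11 over those regions. The regions of *hsp-4* and *hsp-6*, at pooled ranks 11255 and 1237, lay outside those ranks. Over all 8668 pooled regions found in both replicates, 50.5% were higher in replicate 2 and the median ratio was 1.005. In the list of replicate 1 alone 2 members had a region among the 1000 highest, against 4.66% of all protein-coding genes, and in that of replicate 2 alone 6 did, against 4.67%. The strongest region of *hsp-60* was found in replicate 2 only and that of *cdc-48.2* in replicate 1 only. For the 6 members matched in both, the replicate summits lay from 2 bp apart for *cdc-48.1* and *hsp-4* to 61 bp for *daf-21*. The median was 56 bp over all 8768 pairs matched directly between the replicates. The members were matched through the pooled summit, within 200 bp of it, so wide gaps were left out by the matching itself.

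**Figure D3:**
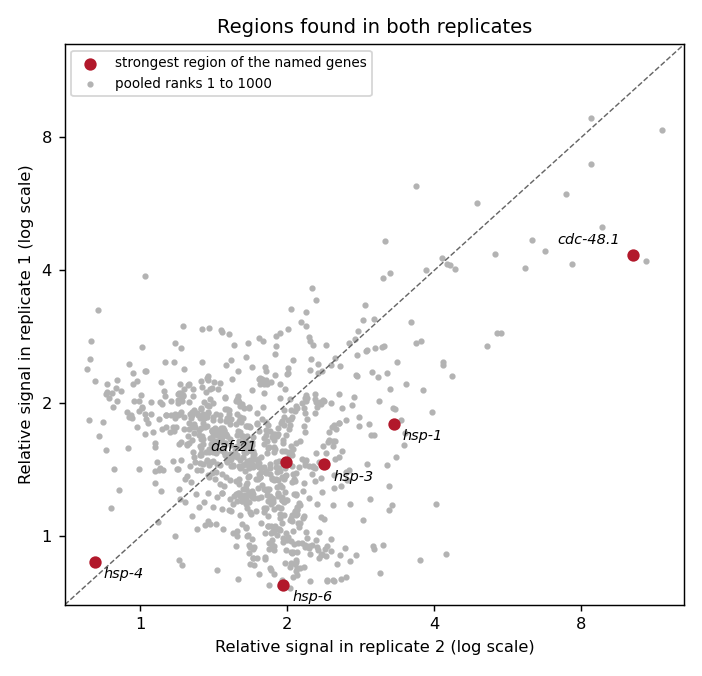
Relative signal in replicate 2 (horizontal, log scale) and replicate 1 (vertical, log scale) for the strongest regions of the 6 members found in both replicates, in red, and for the 887 matched regions of pooled ranks 1 to 1000, in grey. The dashed line marks equal values, and 5 of the 6 members lie below it, with *hsp-4* above.

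**Figure D4:**
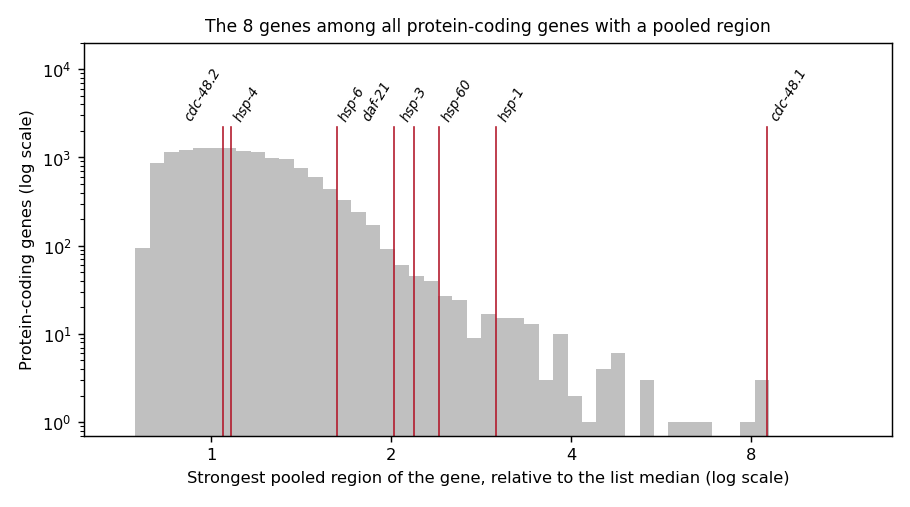
Histogram of the strongest pooled region's relative signal (log scale) over the 14381 protein-coding genes with a pooled region (number of genes, log scale), with the 8 members as red lines. *cdc-48.1* stands at 8.51 near the upper end, and *cdc-48.2* and *hsp-4* stand in the middle of the distribution.

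The patterns in the sequences printed above were counted for all 8 members, within 100 bp of the strongest summit and on both strands. TTCNNGAA, which is its own reverse complement, matched at 4 members, *cdc-48.1*, *hsp-4*, *hsp-60* and *daf-21*, and at 13.6% of the pooled regions and 9.20% of the thresholded peaks. GAGAGA matched at 2, *hsp-1* and *hsp-3*, and at 10.5% of the pooled regions and 36.2% of the thresholded peaks. TGACGT matched at 2, *cdc-48.1* and *hsp-3*, and at 6.26% of the pooled regions and 9.82% of the thresholded peaks. TGATNNAT matched at 0 members and at 16.9% of the pooled regions, which says only that these letters are not in those windows. A match is a description of the letters and not a bound site.

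The bases shared by *hsp-60* and *daf-21*, TTCGAGAA, are 1 of the forms of TTCNNGAA, and were picked out after the sequences had been read. They lay at 2 of the 8 members and at 1.86% of the pooled regions, TTCTCGAA being the same letters on the other strand. In *hsp-60* they began 48 bp before the summit and in *daf-21* 15 bp after it. Of the 163 thresholded peaks 3, or 1.84%, held them, close to the share of the pooled regions. These were the *hsp-60* peak, a peak 665 bp upstream of *des-2*, an acetylcholine receptor subunit gene, and the peak between *hsp-110* and *rpn-3*. Nothing is read from which genes lie beside these peaks. *hsp-110*, a cytosolic relative of HSP70 that acts as its nucleotide exchange factor, was no member, and is shown for this match. Its window was chrIII:8447065-8447265 on the minus strand, from the same genome and with the same capitals.
hsp-110: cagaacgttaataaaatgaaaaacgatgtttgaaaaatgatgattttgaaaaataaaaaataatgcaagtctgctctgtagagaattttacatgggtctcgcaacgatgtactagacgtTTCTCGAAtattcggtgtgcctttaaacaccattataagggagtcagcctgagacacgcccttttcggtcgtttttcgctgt
The match in *hsp-110* began 19 bp after the summit and 237 bp upstream of the gene's 5' end.

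Among the other genes of protein quality control, the share with a high region was close to that of all genes at the 1000 highest regions, and above it for the thresholded list. Of 163 symbols in 11 further lists, 159 were matched to the annotation, and 7 of these genes, or 4.40%, had a region among the 1000 highest pooled regions, where all protein-coding genes gave 4.71%. A thresholded peak lay in the window of 4, or 2.52%, against 0.861% of all genes, and 2 of the 4, *hsp-110* and *rpn-3*, had the same peak. With as many of the highest regions of replicate 1 alone, 2 genes had one, 1.26% against 0.811% of all genes. With those of replicate 2 alone 5 did, 3.14% against 0.886%. The lists were chosen with earlier results of these data known, so these shares are descriptions. The median relative signal of the strongest pooled region was 1.112 over the wider lists, against the 1.104 of all genes with a region. The CDC-48 cofactors, which bring substrates to the ATPase, had 0 of 14 genes among the 1000 highest, the cochaperones of HSP90 and HSP70 had 0 of 11, and the DnaJ proteins had 0 of 29. The small heat shock proteins had 0 of 14, the genes of folding and unfolded protein response had 0 of 18 for the endoplasmic reticulum and 0 of 12 for the mitochondria, and the heat shock factors and regulators had 0 of 4. The mitochondrial list lacked *hsp-10*, a symbol that was not matched, and *Y22D7AL.10*, the mitochondrial heat shock protein gene beside *hsp-60*, was not counted in it. With that gene, which has the *hsp-60* peak in its window, the wider lists had 8 of 160 genes among the 1000 highest and 5 of 160, or 3.12%, with a thresholded peak, a count added after the values were seen. The proteasome had 1 of 32, the other AAA ATPases 1 of 11 and the inducible and other HSP70 genes 1 of 7.

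The cytosolic chaperonin CCT, which folds actin and tubulin, and its partner prefoldin gave the highest count of these lists, 4 of 14, of which 2 were thresholded peaks. *cct-1* had its peak 274 bp upstream on chromosome II, with a relative signal of 3.79 in the pooled list and a mean of 3.32 ± 0.375 (SD, n = 2). *cct-8* had one 398 bp upstream on chromosome IV, with 3.75 pooled and a mean of 3.32 ± 1.19 (SD, n = 2), so both stood between *cdc-48.1* and *hsp-1*. *cct-6*, at 1.91 and 289 bp upstream, and *pfd-1*, at 1.74 and 365 bp upstream, lay outside the threshold. Each of these 4 summits lay nearer the 5' end of a divergent neighbour. They were 146 bp upstream of *mig-5*, 223 bp of *Y55F3AR.2*, 42 bp of *alh-9* and 244 bp of *F01G4.6*, in the same order. The other regions counted were the one between *hsp-110* and *rpn-3*, a lid subunit of the proteasome, at 2.81 with a mean of 2.55 ± 0.750 (SD, n = 2), which lies in the windows of both genes and was counted for each list, and that of *nsf-1*, the AAA ATPase of membrane fusion, at 1.94. Nothing is called particular to a list from these counts.

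**Figure D5:**
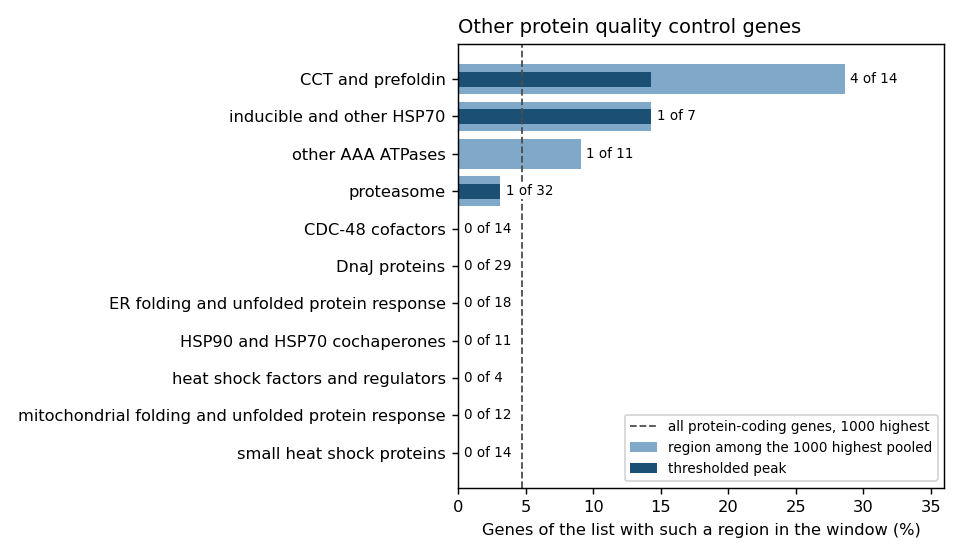
Share of the genes of each further protein quality control list (%) with a region among the 1000 highest pooled (light bars) or a thresholded peak (dark bars), with the number of genes beside each bar. The dashed line marks the 4.71% of all protein-coding genes, and CCT and prefoldin lie highest, at 4 of 14.

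For the 3 members with a thresholded peak, the genes most like them were taken as those whose strongest regions in the 2 replicates lay nearest, by Euclidean distance of the log2 relative signals. For *cdc-48.1* these were *Y41G9A.17*, at a distance of 0.0963 with a relative signal of 10.8 in replicate 2, then *nspc-17* at 0.297 and *egg-5* at 0.422. For *hsp-1* they were *Y111B2A.12* at 0.103 and then *cap-2* and *gmps-1*, both at 0.113 because they share a region. For *hsp-60* they were *acp-7* at 0.269, *nck-1* at 0.282 and *smu-1* at 0.292. The *hsp-60* value in replicate 1 came from a weaker region in another place than the peak. That region stood at 1.11, in an intron 2147 bp downstream of the 5' end. With 2 samples the measure describes only how high each gene stood in each list.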

How the data were processed

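ChIP-seq regions of LIN-39 from 2 biological replicates were analysed as deposited. The signal of each region is the value the authors deposited beside it, an enrichment over the control as the caller gave it. The text deposited with the files says that a replicate's list was called on its own alignment with the shared control, the pooled list on both alignments with that control, and that the thresholded list keeps what passed an irreproducible discovery rate cutoff. Aligner, caller, versions and cutoff were not given in the sources used here. Since the files hold no counts, the depth is unknown and no interval for counting error was set on a signal.

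From there, the signal was turned into a rank and into the ratio to its own list's median. Coordinates are 1-based on ce11. Genes came from Ensembl release 115, with RefSeq gene ends as an alternative chosen after seeing the data, and sequences from the RefSeq genome of the same build. A region was assigned by position alone, so 1 region can belong to several genes. Regions of the lists were matched when their summits lay within 200 bp and were each other's nearest. The ce10 lists were not used, since the genes were placed on ce11 and no coordinates were converted. The 8 members, the wider lists and the patterns were chosen with earlier results of these data known, and TTCGAGAA after reading the sequences. All members are named. Of the wider lists, genes with a thresholded peak or a region among the 1000 highest pooled regions are named (up to 5 more a list). Genes that share these regions or have the nearest 5' end are named too. So are the 3 genes most like each member with a thresholded peak, and *des-2* was added after its value was seen. With 1 group of 2 replicates and members chosen on their values, no test was made. Alternatives varied the upstream distance, the gene part, the number of regions, the matching and pattern distances, the median used and the replicates. The functions were tested on simulated data. Python 3.11.15, numpy 2.4.6, pandas 2.3.3 and matplotlib 3.10.9 were used.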

Additional observations from a re-analysis of the deposited data

How the results depend on the processing

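The count of members with a thresholded peak was 3, and 2 to 3 under the other upstream distances, gene parts, overlap rule, gene ends and the upper part of that list. Taking 1 replicate's highest regions instead left it at 1 to 3, with the 1 from replicate 1 alone, where 0.811% of all protein-coding genes had such a region, against 0.886% for replicate 2. The count with a region among the 1000 highest was 5, and 2 to 6 with 1 replicate's list, the 2 again from replicate 1. The count among the highest of both replicates was 1 with the 500 highest, against 2 with 1000, where 0.611% of all genes had one with 500 and 0.796% with 1000. GAGAGA matched at 1 member within 50 bp of the summit, against 2 within 100 bp. The wider lists gave 7 genes, 4.40% against 4.71% of all protein-coding genes. They gave 11 with 5000 bp upstream, 6.92% against 7.22%, 14 with the 2000 highest, 8.81% against 8.89%, and 4 with the thresholded list, 2.52% against 0.861%. As the median of all pooled regions in the window, in place of the strongest, *cdc-48.1* stood at 5.01, *hsp-1* at 1.07 and *hsp-60* at 1.63. Without replicate 2, the relative signal moved for 7 members by more than the SD of the replicates, where there was one, and without replicate 1 for 2. *cdc-48.2*, among the 7, had no SD and went only from 1.05 to 1.06. *hsp-60*, among the 2, had no SD and went from 2.41 to 3.49. RefSeq gene ends moved none of the 8. No paired analysis was possible because both replicates form 1 group. The 2 replicates limit every SD, and the cause of their differences was not tested.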

Other observations

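The pooled regions around the members are set here beside the members' own strongest ones. The members were selected on their signals and the strongest region of each was taken. The same comparison was not made for other genes, so nothing is read from it. Within 10000 bp of the *cdc-48.1* summit there were 7 other pooled regions, the highest at a relative signal of 2.12, against the 8.51 of its own. Around *hsp-60* 6 others reached 1.15, against 2.41, and around *hsp-6* 3 others reached 0.890, against 1.62. Around *hsp-1* 4 others reached 2.32, against 3.00. *hsp-4* was surrounded by 7 others of which the highest, at 1.57, stood above its own 1.08, and *cdc-48.2* by 7 others reaching 1.14, against 1.05.

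Several of the strongest regions lay between divergent genes. The 5' ends on either side of the summit were 813 bp apart at *hsp-60* and *Y22D7AL.10* and 1176 bp at *hsp-3* and *C15H9.5*. At *cdc-48.1* the divergent gene *C06A1.7* starts 1484 bp away, but *C06A1.6*, on the strand of *cdc-48.1*, lies between the summit and *C06A1.7*. At *daf-21* the summit lay 334 bp upstream of *C47E8.4* and between the 5' ends only by the RefSeq 5' end of *daf-21*, 341 bp away, since the Ensembl 5' ends of both genes lie on the same side of it. Among the further chaperone genes, divergent 5' ends flanked the summit at *cct-1* and *mig-5*, 420 bp apart, and at *cct-8* and *Y55F3AR.2*, 621 bp apart. At *hsp-110* and *rpn-3* they were 444 bp apart. A region between such 5' ends cannot be assigned to either gene by position.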
